A study of Mus musculus with 8 samples.

Results

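Anti-PD1 resistant 4T1 cells were compared with the parental 4T1 cells across all genes of the deposited table that holds both. 4T1 is a murine mammary carcinoma line of the triple-negative type, often transplanted into mice because its tumours metastasise, and anti-PD1 is an antibody that blocks an inhibitory receptor of T cells. The resistant group was 2 libraries of 4T1 cells labelled as resistant to anti-PD1 and of control genotype, and the parental group was 2 libraries of 4T1 cells labelled parental, also of control genotype. Neither group carried the Tyro3 overexpression or Tyro3 knockout of the other 4 of the 8 libraries. Both groups were grown in DMEM with fetal bovine serum, were given no treatment, and gave total RNA. The labels do not say how the resistant cells were obtained, whether they are 1 clone or a mixed population, or whether a group's 2 libraries stem from different cultures. P-values therefore cover only the spread among these libraries, and that spread may be technical. The table lists 22253 genes, and the tables of all 8 libraries joined list 24677. Of the joined genes 14513 passed a filter on low counts and were tested. That filter used all 8 libraries, so a gene could pass through the knockout or overexpressing libraries. With the resistant and parental libraries alone 13704 genes were tested.

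T cells recognise tumour cells through peptides shown on MHC class I, and tumour cells further shape that attack through inhibitory and stimulatory surface ligands and through chemokines that draw in neutrophils, monocytes and lymphocytes. Dividing cells express the genes of DNA replication and mitosis and draw on sterol synthesis and ribosome assembly for growth. Cells short of amino acids or under stress of the endoplasmic reticulum use the transcription factor ATF4 to switch on another set of genes. Cells short of growth factor signals use FOXO, and cells in which sugar phosphates build up use MondoA, to switch on others.

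The resistant libraries held 22003608 and 21182093 counted reads and the parental libraries 18001482 and 20962788. Values are reads scaled to a common library total (CPM), changes are log2 fold changes of resistant over parental cells with their standard error (SE), and a gene is called when its adjusted p from edgeR's quasi-likelihood test is under 0.05. Across genes the resistant libraries correlated with each other at r = 0.993, the parental ones at 0.990, and resistant with parental libraries at 0.932 to 0.935. The knockout libraries, labelled as made from resistant cells, correlated with the parental libraries at 0.981 to 0.982 and with the resistant ones at 0.932 to 0.936. They thus lie nearer to the parental cells than to the cells they are labelled as derived from. The overexpressing libraries, labelled as made from parental cells, correlated with the resistant libraries at 0.9632 to 0.9658. With the parental ones they correlated at 0.9572 to 0.9585, so they too lie nearer to the group they are not labelled as derived from. The groups are used here as labelled, and whether the labels and the origin of the cells are as given was not tested, which bears on every comparison of resistant with parental cells. Ribosomal protein genes took 8.68% and 8.99% of reads in the resistant libraries, against 5.57% and 5.52% in the parental ones, and mitochondrially encoded genes took 3.23% and 2.98%, against 1.99% and 2.11%. Upper-quartile scaling moved the median change of all genes to 0.19, against 0.03 in the scaling used here.

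Markers of the labelled cell type were partly present. The 9 epithelial markers found summed to 568.3 and 533.5 CPM in resistant libraries, against 949.9 and 928.3 CPM in parental ones. Of 8 tested, 1 was called higher and 4 lower, where 35.1% and 36.1% of all genes tested were. The epithelial keratin Krt8 had 232 and 217 CPM in resistant libraries, against 540.2 and 524 CPM in parental ones, and Krt18 had 288 and 268 CPM in resistant libraries, against 369.6 and 366 CPM in parental ones. The epithelial adhesion genes Epcam and Cdh1 were near 0 in all 4 libraries, Epcam at 0.133 and 0.225 CPM in resistant libraries, against 1.19 and 0.513 CPM in parental ones, and Cdh1 at 0.442 and 0.316 CPM in resistant libraries, against 0.297 and 0.821 CPM in parental ones. The oestrogen receptor gene Esr1, low in triple-negative tumours, had 13.9 and 12.1 CPM in resistant libraries, against 6.35 and 8.27 CPM in parental ones, and Erbb2 had 36.3 and 38.5 CPM in resistant libraries, against 39.3 and 39.8 CPM in parental ones. Of markers of other cells, those of lymphocytes (4 found), neutrophils (6) and endothelium (6) summed to at most 1.31 CPM in any library and none was tested. The 10 fibroblast and pericyte markers found summed to 190.9 and 176.0 CPM in resistant libraries, against 98.3 and 97.4 CPM in parental ones, almost all of it Pdgfra and Pdgfrb, with no read of Col3a1 in any of the 4. The 9 macrophage markers found summed to 31.3 and 27.6 CPM in resistant libraries, against 65.0 and 59.6 CPM in parental ones, nearly all of it Cd14 and Cd68, while Adgre1, Csf1r and Ptprc stayed under 1 CPM.

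Resistant and parental cells differed in most of the genes tested. In all 10333 of 14513 genes were called, 71.2%, with 5092 (35.1%) higher and 5241 (36.1%) lower in the resistant cells. At least a 2-fold change was seen in 3980 calls (27.4% of genes tested), 2139 higher and 1841 lower, at least a 4-fold change in 1310, and at least a 16-fold change in 219, 108 higher and 111 lower. The groups did not overlap for 12222 genes (84.2%) and for 10294 of the called genes. The quartiles of the change over all genes were -0.57 and 0.67. Each list below is given with its counts and median, to be read against these shares and the median of 0.03.

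Tyro3, the receptor tyrosine kinase that the study engineered (chromosome 2, 119797733 to 119818104 in GRCm38, protein coding), was not higher in the resistant cells. It had 20.7 and 21.2 CPM in resistant libraries, against 25.6 and 24.4 CPM in parental ones (log2 fold change -0.26, SE 0.08, adjusted p = 0.00586). Its relatives in the TAM family, which sense dying cells, moved in both directions. Axl had 759 and 719.9 CPM in resistant libraries, against 1509 and 1549 CPM in parental ones (log2 fold change -1.05, SE 0.04, adjusted p = 4.96e-26), and Mertk, at a low level, had 2.34 and 2.52 CPM in resistant libraries, against 0.772 and 0.667 CPM in parental ones (log2 fold change 1.75, SE 0.43, adjusted p = 0.00034). The TAM ligand gene Pros1 had 17.1 and 14.97 CPM in resistant libraries, against 30.6 and 31.9 CPM in parental ones, and its change was -0.96. Of 5 tested receptors and ligands of this family 1 was called higher and 4 lower, and with upper-quartile scaling Tyro3 itself was not called (-0.09, adjusted p = 0.301).

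The largest rises included genes of channels, lipid and iron handling that parental cells hardly expressed. P2rx3, an ATP-gated ion channel of sensory neurons, had 21.6 and 17.7 CPM in resistant libraries, against 0 and 0.0513 CPM in parental ones (log2 fold change 9.21, SE 0.38, adjusted p = 3.08e-25). The parental value is 1 read in all, so the size of this change depends on the fit. Slc40a1, which encodes ferroportin, the cellular iron exporter, had 5.88 and 6.85 CPM in resistant libraries, against 0 and 0.103 CPM in parental ones, and Soat2, which esterifies cholesterol, had 11.5 and 9.65 CPM in resistant libraries, against 0 and 0.257 CPM in parental ones. The resistant libraries were high and the parental ones at or near 0 for each. Angptl6, a secreted angiopoietin-like protein, had 47.7 and 42.3 CPM in resistant libraries, against 0.594 and 0.565 CPM in parental ones, a 77.1-fold rise. Nos1, a nitric oxide synthase, had 9.46 and 9.2 CPM in resistant libraries, against 0.178 and 0.0513 CPM in parental ones. The others shown were Cd74 (the MHC class II invariant chain), Sh2d6, S100a16, Car6 (a secreted carbonic anhydrase), Serpinf1 (an anti-angiogenic serpin) and Phyhd1, with changes of 6.98, 6.83, 6.04, 6.02, 5.70 and 5.65.

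The 12 largest falls held secreted factors and adhesion genes that resistant cells had almost lost. Cdh17, an atypical cadherin of the gut, had 0.177 and 0.18 CPM in resistant libraries, against 22.9 and 22.9 CPM in parental ones (log2 fold change -6.96, SE 0.24, adjusted p = 2.84e-28). Wnt7a, a secreted Wnt ligand, had 0.442 and 0.18 CPM in resistant libraries, against 24.5 and 22.5 CPM in parental ones, and the monocyte chemokine gene Ccl2 had 1.5 and 1.89 CPM in resistant libraries, against 61.8 and 62.7 CPM in parental ones. Like the largest rises, these genes were chosen among those whose groups do not overlap. Hs3st1, which sulphates heparan sulphate, had 0.752 and 0.947 CPM in resistant libraries, against 30.2 and 30.5 CPM in parental ones, and Angptl4, an inhibitor of lipoprotein lipase, had 1.33 and 1.13 CPM in resistant libraries, against 34.98 and 31.2 CPM in parental ones. Prl2c2 and Prl2c3 are proliferins of the prolactin family. Prl2c2 had 0 and 0 CPM in resistant libraries, against 5.82 and 6.11 CPM in parental ones, and Prl2c3 had 0.0885 and 0 CPM in resistant libraries, against 42.5 and 42.3 CPM in parental ones. The copies are nearly identical and the share of reads each receives is uncertain. The others were Scin (an actin-severing protein), Id4, S100a7a, Mmp10 and Lilr4b, with changes of -6.82, -6.65, -5.45, -5.04 and -4.75.

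**Figure D1:**
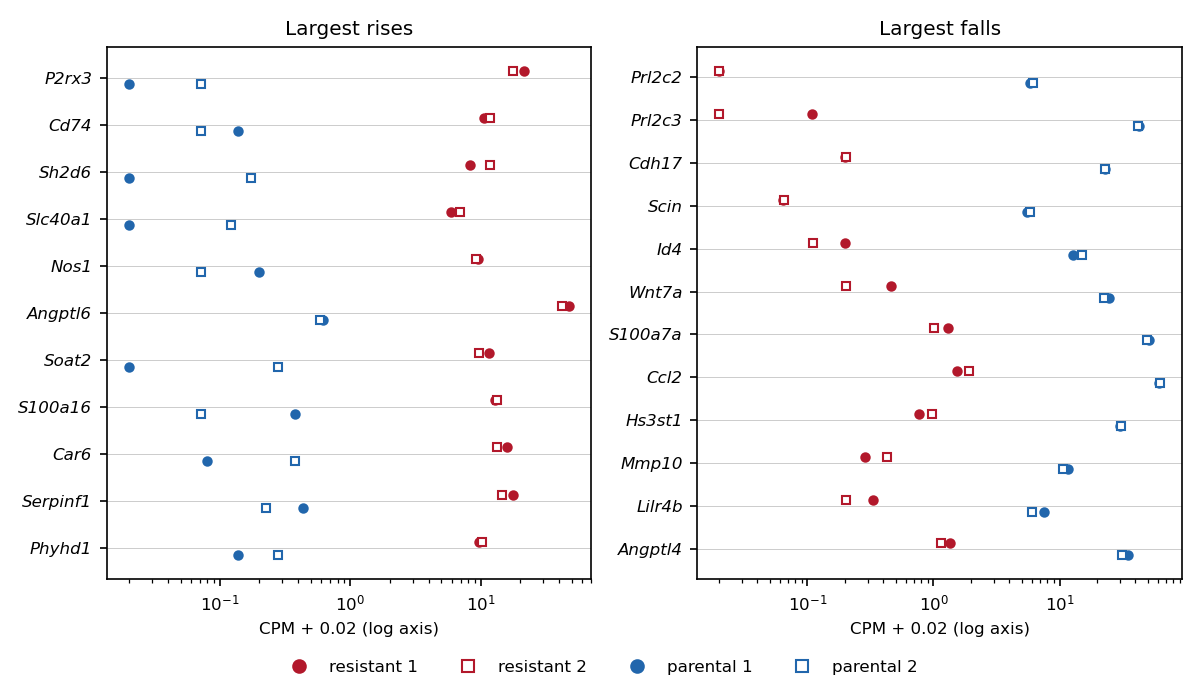
CPM plus 0.02 (log axis) of 11 of the 12 genes that rose most and of the 12 that fell most, 1 point per library, with resistant libraries in red and parental libraries in blue. The genes were chosen among those whose groups do not overlap, so the groups are apart for each by choice. P2rx3, for one, lies at 21.6 and 17.7 CPM in resistant libraries and 0 and 0.0513 CPM in parental ones.

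Some genes had no read in 1 group. Each bound below divides the mean CPM of the group with reads by the mean CPM that 3 reads make in the other. It bounds the mean and not each library. Sema4a had 2.17 and 1.31 CPM in resistant libraries and Trp53cor1 2.21 and 1.22 CPM, so their lower library gives less. With a floor of 3 reads per library, Chrnd, a subunit of the muscle acetylcholine receptor, was at least 15.2-fold higher in resistant cells, the semaphorin gene Sema4a at least 10.5-fold, the long noncoding RNA Trp53cor1 at least 10.3-fold, the phosphodiesterase gene Pde9a at least 8.86-fold and Fgf21, a hormone of fasting and an ATF4 target, at least 8.07-fold. With no read in resistant cells, Prl2c2 was at least 44.5-fold lower there, Foxf2, a transcription factor of mesenchyme, at least 29.0-fold, Iapp, the islet peptide amylin, at least 23.5-fold and the glutathione transferase gene Gsta1 at least 20.1-fold. U90926 also had no read in resistant libraries, against 1.37 and 3.03 CPM in parental ones, which differ too much for 1 bound.

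Some abundant RNAs differed as well. The largest gains in CPM were mt-Co1, Tpt1, Ftl1, Eef2, Fn1, mt-Cytb, Sqstm1, Gm26917, Gm23935 and Rpl12. Ftl1, the ferritin light chain that stores iron, had 5259 and 5129 CPM in resistant libraries, against 1855 and 1572 CPM in parental ones (log2 fold change 1.60, SE 0.05, adjusted p = 1.37e-29). Tpt1 had 5512 and 5350 CPM in resistant libraries, against 1756 and 1773 CPM in parental ones. Fn1, the matrix protein fibronectin, had 3498 and 3429 CPM in resistant libraries, against 842 and 906 CPM in parental ones. The largest losses were Odc1, Actb, Lgals1, Hspa8, Vim, Hsp90ab1, Tubb5, Pkm, Ppia and Actg1. Odc1, ornithine decarboxylase, which starts polyamine synthesis, had 348 and 334 CPM in resistant libraries, against 3719 and 3617 CPM in parental ones (log2 fold change -3.43, SE 0.05, adjusted p = 2.09e-43). The cytoplasmic actin genes Actb and Actg1 had changes of -1.62 and -1.97, and the tubulin gene Tubb5 -1.87. Ppia (-1.70) and the glycolytic gene Gapdh (-0.67, chosen after its values were seen), often used with Actb to scale PCR measurements, were lower as well. Gm26917 is annotated as a long intergenic RNA and Gm23935 as a microRNA. Of the 2, Gm23935 differed more between the libraries of a group. Gm23935 had 2396 and 4196 CPM in resistant libraries, against 1474 and 2388 CPM in parental ones, and it was not called with DESeq2 or with no filter (adjusted p = 0.106 in both).

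Genes that copy and divide chromosomes were lower in the resistant cells in every role. All 79 tested mitosis genes were called lower, with medians of -2.04 for cyclins and kinases, -2.14 for kinetochore genes, -2.05 for spindle genes, -1.86 for condensin, cohesin and chromatid genes and -1.80 for genes of anaphase exit. Ccnb1, the cyclin that starts mitosis, had 33.8 and 36.2 CPM in resistant libraries, against 314 and 312 CPM in parental ones (log2 fold change -3.16, SE 0.05, adjusted p = 2.07e-40). Birc5, which encodes survivin of the chromosomal passenger complex, had 20.6 and 20.3 CPM in resistant libraries, against 185 and 197 CPM in parental ones, and the kinetochore gene Nuf2 had 10.9 and 11.99 CPM in resistant libraries, against 113 and 116 CPM in parental ones. Birc5 changed by -3.22 and Nuf2 by -3.32. These genes were named by smallest adjusted p, so that their groups lie far apart follows from the choice. Fewer dividing cells and less of this RNA per cell cannot be told apart in bulk samples. All 52 tested replication genes were called lower too. Rrm2, a subunit of ribonucleotide reductase, had 43.4 and 45.7 CPM in resistant libraries, against 470.3 and 465 CPM in parental ones (log2 fold change -3.39, SE 0.05, adjusted p = 3.27e-43), and the salvage kinase gene Tk1 had 23.1 and 25.3 CPM in resistant libraries, against 237 and 219.5 CPM in parental ones. The medians were -1.71 for origin licensing, where Mcm3, Mcm4 and Mcm5 encode parts of the helicase (-1.76, -1.73 and -1.71), -1.61 for polymerases and clamp loaders, with Rfc5 at -2.48, and -1.82 for nucleotide supply.

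Promoters of these genes are shown for the motifs that the mitotic and replication programs are known to use, the CHR element TTTGAA and the E2F element TTTCNCGC. Promoters came from RefSeq (GRCm38.p6), from 250 bases before to 50 after the start of transcription, and were searched on both strands. Of the 79 mitosis genes 66 matched a promoter, and 44 of them (66.7%) held TTTGAA, against 20.2% of 27025 genes with a promoter there. Of 42 matched replication genes 11 (26.2%) held TTTCNCGC, against 2.44% of all genes. The CCAAT box was in 74.2% of the mitosis genes, 52.4% of the replication genes, 90.0% of the cholesterol synthesis genes, 66.7% of the ATF4 effectors described below and 41.1% of all genes. Plk1 (chr7:122159185-122159484, plus strand), Cdc20 (chr4:118437294-118437593, minus strand) and Ube2c (chr2:164769679-164769978, plus strand) had changes of -2.97, -2.60 and -2.79, and Mcm5 (chr8:75109259-75109558, plus strand) of -1.71. A match is a description of the letters and not a shown binding site. Capitals mark TTTGAA or its complement in the first 3 and TTTCNCGC in the last.
Plk1: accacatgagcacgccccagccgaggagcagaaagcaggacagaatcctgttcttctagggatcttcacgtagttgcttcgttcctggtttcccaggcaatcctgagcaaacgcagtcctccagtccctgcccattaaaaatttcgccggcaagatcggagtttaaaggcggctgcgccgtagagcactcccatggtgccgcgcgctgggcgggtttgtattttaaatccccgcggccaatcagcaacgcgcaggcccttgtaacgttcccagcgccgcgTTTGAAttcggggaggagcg
Cdc20: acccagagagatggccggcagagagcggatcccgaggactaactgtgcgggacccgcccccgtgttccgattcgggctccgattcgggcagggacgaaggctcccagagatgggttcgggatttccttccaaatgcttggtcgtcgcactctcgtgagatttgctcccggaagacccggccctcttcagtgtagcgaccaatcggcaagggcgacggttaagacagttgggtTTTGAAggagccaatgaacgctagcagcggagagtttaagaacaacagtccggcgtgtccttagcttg
Ube2c: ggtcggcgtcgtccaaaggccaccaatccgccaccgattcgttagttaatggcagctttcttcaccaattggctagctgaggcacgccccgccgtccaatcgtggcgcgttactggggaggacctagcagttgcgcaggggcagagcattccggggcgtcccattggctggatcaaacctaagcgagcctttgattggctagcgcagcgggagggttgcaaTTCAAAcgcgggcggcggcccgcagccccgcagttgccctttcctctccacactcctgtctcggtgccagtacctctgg
Mcm5: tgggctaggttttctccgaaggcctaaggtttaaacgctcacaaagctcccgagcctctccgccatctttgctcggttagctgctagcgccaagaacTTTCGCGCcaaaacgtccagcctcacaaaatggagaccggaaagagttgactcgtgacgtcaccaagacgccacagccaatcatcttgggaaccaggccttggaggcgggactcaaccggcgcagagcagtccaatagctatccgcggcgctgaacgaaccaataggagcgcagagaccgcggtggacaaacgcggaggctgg

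Most genes that decide on entry into the cycle were lower, with some exceptions. Of 15 tested E2F and pocket protein genes 11 were called lower and 2 higher (median -0.66). The 2 higher ones were 2 of the pocket proteins, which hold E2F factors in check: Rb1 had 23.7 and 21.2 CPM in resistant libraries, against 9.38 and 10.1 CPM in parental ones (log2 fold change 1.20, SE 0.11, adjusted p = 2.01e-13), and Rbl2 had 27.02 and 27.8 CPM in resistant libraries, against 16.8 and 16.3 CPM in parental ones. Rbl1, the other pocket protein, chosen after its values were seen, changed by -1.41. E2f8 and E2f7, E2F factors that repress and are themselves made in S phase, had -2.72 and -2.42, and Mybl2, of the complex that drives mitotic genes, -2.32. Among 12 G1 cyclins and kinases 9 were lower and 2 higher. The D cyclins moved apart, Ccnd2 with 35.5 and 31.7 CPM in resistant libraries, against 3.62 and 3.13 CPM in parental ones (log2 fold change 3.32, SE 0.14, adjusted p = 1.28e-25), and Ccnd1 with 639 and 596 CPM in resistant libraries, against 1335 and 1335 CPM in parental ones. Myc, a driver of growth, had 329 and 318 CPM in resistant libraries, against 212 and 215 CPM in parental ones, and so was higher. Ccne2, which opens S phase, had 11.01 and 10.01 CPM in resistant libraries, against 68.7 and 71.9 CPM in parental ones. Of the inhibitors of cyclin-dependent kinases, Cdkn1b, which encodes p27, had 197 and 186 CPM in resistant libraries, against 114 and 104 CPM in parental ones (log2 fold change 0.81, SE 0.05, adjusted p = 6.93e-20). Cdkn1a, which encodes p21, had 18.8 and 19.6 CPM in resistant libraries, against 17.6 and 23.6 CPM in parental ones, overlapping groups and a change of -0.11 that was not called, though it was called lower without parental replicate 1 (-0.31, adjusted p = 0.0138). Cdkn2c and Cdkn2d were lower (-1.12 and -0.82).

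Repair genes of recombination and the Fanconi pathway were mostly lower, 20 of 23 tested, with 1 higher (median -1.57). Fanca, of the core complex, had 11.6 and 12.4 CPM in resistant libraries, against 57.2 and 54.7 CPM in parental ones (log2 fold change -2.22, SE 0.08, adjusted p = 3.94e-27). The checkpoint kinase gene Chek1 changed by -1.62. The exception was Fance at 0.33. Of 11 genes of mismatch and other repair 10 were lower, at a smaller median of -0.50, with Parp1 at -1.37.

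p53 target genes did not move together, 7 of 18 being called higher and 7 lower. Trp53 itself, chosen after its values were seen, had 142 and 134 CPM in resistant libraries, against 63.2 and 58.1 CPM in parental ones. Gadd45a, a growth arrest gene, had 137 and 139 CPM in resistant libraries, against 11.2 and 10.8 CPM in parental ones (log2 fold change 3.64, SE 0.07, adjusted p = 1.01e-36), and Trp53inp1, an autophagy and death cofactor, had 104 and 95.4 CPM in resistant libraries, against 8.61 and 9.86 CPM in parental ones. Both were far higher in both resistant libraries, while the targets Plk2, Aen and Bax were lower (-1.80, -0.91 and -0.92). The BCL2 family, which decides on mitochondrial cell death, was called for each of its 14 tested members, 7 higher and 7 lower. Higher were the BH3-only sensors Bmf, Bbc3 and Bcl2l11, Bmf with 28.2 and 24.8 CPM in resistant libraries, against 1.84 and 0.975 CPM in parental ones (log2 fold change 4.26, SE 0.17, adjusted p = 1.90e-25). Lower were the pore formers Bax, Bak1 and Bok (-1.14 for Bok) and the survival genes Bcl2l1 and Mcl1 (-0.82 and -0.71). The survival gene Bcl2 was higher, with 38.5 and 37.2 CPM in resistant libraries, against 22.3 and 22.2 CPM in parental ones.

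The ATF4 program was higher in the branch of stress effectors and divided in the branches of synthesis. Of the 20 listed factors and effectors 17 were tested and all 17 were called higher (median 1.96, which Fgf21, with no parental read, leaves as it is when set to its lower bound). Trib3, a pseudokinase that feeds back on ATF4, had 547 and 540.5 CPM in resistant libraries, against 27.3 and 27.8 CPM in parental ones (log2 fold change 4.30, SE 0.05, adjusted p = 1.13e-44). Atf5, a related factor, had 439 and 446 CPM in resistant libraries, against 38.4 and 36.1 CPM in parental ones, and Nupr1, a stress cofactor, had 133 and 122 CPM in resistant libraries, against 27.02 and 26.9 CPM in parental ones. All 3, named by smallest adjusted p, were higher in both resistant libraries, Trib3 19.7-fold and Nupr1 4.72-fold. Atf4 itself and its partner Ddit3, chosen after their values were seen, had changes of 1.02 and 2.80. Among 12 tested amino acid transporters 8 were higher and 2 lower, with the glycine transporter gene Slc6a9 at 114 and 115 CPM in resistant libraries, against 22.6 and 24.3 CPM in parental ones. Slc7a11, which imports cystine, rose by 1.83, and its heavy chain Slc3a2 by 1.40. Among 15 enzymes of serine, one-carbon, asparagine and proline synthesis 6 were higher and 8 lower. Asns, Gpt2 and Aldh1l2, for asparagine, alanine and mitochondrial formate handling, were higher (1.31, 2.09 and 2.38), and the cytosolic and mitochondrial folate enzymes Mthfd1, Shmt1 and Mthfd1l were lower (-1.44, -1.63 and -1.50). Of 20 cytosolic tRNA synthetases 7 were higher, with Sars at 0.97, and 11 lower, with Farsa at -1.36.

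The composite element of ATF4 and C/EBP factors, TGATGNAA, was in promoters of 7 of 18 matched genes of the ATF4 effectors (38.9%), against 4.51% of all genes with a promoter, 4.55% of the mitosis genes, 2.38% of the replication genes and 3 of 20 matched cholesterol synthesis genes. Trib3 (chr2:152344011-152344310, minus strand), Chac1 (chr2:119350992-119351291, plus strand) and Slc7a11 (chr3:50443564-50443863, minus strand), which rose by 4.30, 1.62 and 1.83, are shown with the element on either strand in capitals, once in the first and second and at 2 places in the third. None overlapped another of the motifs searched. Slc7a11 belongs to the amino acid transporters and not to the 18 effectors counted.
Trib3: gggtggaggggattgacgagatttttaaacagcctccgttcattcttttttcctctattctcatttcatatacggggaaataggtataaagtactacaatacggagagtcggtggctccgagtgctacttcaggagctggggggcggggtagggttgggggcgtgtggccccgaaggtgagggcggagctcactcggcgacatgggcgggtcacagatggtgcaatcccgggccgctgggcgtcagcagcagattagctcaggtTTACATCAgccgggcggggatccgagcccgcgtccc
Chac1: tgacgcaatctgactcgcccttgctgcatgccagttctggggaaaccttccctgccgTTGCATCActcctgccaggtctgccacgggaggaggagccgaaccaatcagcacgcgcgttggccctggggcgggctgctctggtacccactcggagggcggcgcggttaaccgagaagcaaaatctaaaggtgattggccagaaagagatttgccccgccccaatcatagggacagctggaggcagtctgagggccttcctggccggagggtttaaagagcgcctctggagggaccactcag
Slc7a11: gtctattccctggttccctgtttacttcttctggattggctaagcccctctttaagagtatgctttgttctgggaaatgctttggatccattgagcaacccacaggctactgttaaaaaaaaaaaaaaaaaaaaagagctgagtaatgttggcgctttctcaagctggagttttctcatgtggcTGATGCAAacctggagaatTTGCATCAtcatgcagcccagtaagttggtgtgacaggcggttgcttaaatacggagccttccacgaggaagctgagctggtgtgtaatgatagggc

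Targets of FOXO and MondoA, which are switched on when insulin signalling falls or sugar phosphates build up, were higher for 15 of 17 tested, with 2 lower (median 1.15). Txnip, an inhibitor of glucose uptake, had 324 and 323 CPM in resistant libraries, against 45.7 and 45.3 CPM in parental ones (log2 fold change 2.83, SE 0.05, adjusted p = 7.56e-39). Sesn3, which restrains mTORC1, had 216 and 205 CPM in resistant libraries, against 55.8 and 56.3 CPM in parental ones, and Fbxo32, a ubiquitin ligase of muscle wasting, had 40.03 and 34.2 CPM in resistant libraries, against 5.34 and 5.18 CPM in parental ones. Both resistant libraries lay far above both parental ones for these 3, which were named by smallest adjusted p. The exceptions were Sesn1 and Klf10 (-0.73 and -0.43). Insulin and IGF signalling genes were higher in 7 of 8 tested, the receptor genes Insr and Igf2r at 1.15 and 0.90, with the binding protein Igfbp7 lower at -1.63. Lysosome genes were higher for 14 of 22 and lower for 5 (median 0.38), with the protease gene Ctsb at 1381 and 1316 CPM in resistant libraries, against 613 and 606 CPM in parental ones. Ctsl, another protease, was lower at -0.56. Autophagy genes were higher for 13 of 20 and lower for 2. Sqstm1, the cargo receptor p62, had 2617 and 2551 CPM in resistant libraries, against 810.5 and 828 CPM in parental ones (log2 fold change 1.66, SE 0.04, adjusted p = 1.73e-33), and the autophagosome genes Gabarapl1 and Map1lc3a rose by 1.77 and 1.87, while Becn1 and Atg5, of the initiation and conjugation machinery, were lower (-0.39 and -0.34).

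Sterol and fatty acid genes were lower, and genes of sterol export and storage higher. All 20 cholesterol synthesis enzymes were called lower (median -1.72). Idi1, the isopentenyl diphosphate isomerase, had 3.49 and 3.02 CPM in resistant libraries, against 59.9 and 57.6 CPM in parental ones (log2 fold change -4.17, SE 0.11, adjusted p = 1.93e-32). Srebf2, the factor that drives this set, changed by -1.02. The 2 Insig genes, which retain that factor in the endoplasmic reticulum, went opposite ways, Insig1 at -2.65 and Insig2 at 1.27. Of 13 tested genes of sterol efflux and storage 8 were higher and 1 lower. Mylip, a ubiquitin ligase induced by sterols, had 52.5 and 49.2 CPM in resistant libraries, against 12.7 and 10.7 CPM in parental ones (log2 fold change 2.12, SE 0.09, adjusted p = 1.30e-24), Nr1h2, the sterol receptor LXR-beta, rose by 0.89, and the HDL receptor gene Scarb1 changed by -0.78. Fatty acid enzymes were lower for 10 of 15 and higher for 3, Fasn with 284 and 282 CPM in resistant libraries, against 1011 and 1028 CPM in parental ones. Elovl6, which lengthens fatty acids, changed by -2.10, while Scd1, a desaturase, was higher at 0.42.

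Iron genes moved in both directions. Tfrc, the transferrin receptor that brings iron in, had 159.7 and 158 CPM in resistant libraries, against 743 and 719 CPM in parental ones (log2 fold change -2.20, SE 0.04, adjusted p = 1.39e-37), while Slc40a1, the exporter, the ferroxidase gene Cp (598 and 557 CPM in resistant libraries, against 154 and 155 CPM in parental ones) and the storage gene Ftl1 were higher. Fth1, the heavy ferritin chain, chosen after its values were seen, had 4493 and 4332 CPM in resistant libraries, against 4297 and 4225 CPM in parental ones, and its change of 0.05 was not called, though it was with upper-quartile scaling (0.212, adjusted p = 6.14e-07), with a filter of at least 50 reads (0.105, adjusted p = 0.00581) and without resistant replicate 2 (0.076, adjusted p = 0.0437). In all 7 of 14 tested iron genes were higher and 6 lower. Among genes that act in or against ferroptosis, a death by lipid peroxides, 7 of 13 for cystine, glutathione and peroxide were higher and 5 lower. These genes and those of membrane lipid remodelling hold opposite roles, so their counts give no direction of defence. Gpx4, which reduces lipid peroxides, had 479 and 476 CPM in resistant libraries, against 427 and 417 CPM in parental ones (0.18), Chac1, which degrades glutathione, rose by 1.62, and Prdx1 changed by -1.02. Of 9 genes of membrane lipid remodelling 3 were higher, with Acsl4, which loads polyunsaturated fatty acids into membranes, at 528 and 485 CPM in resistant libraries, against 299.5 and 319.5 CPM in parental ones, and 6 lower, with Acsl5 and Mboat1 at -1.77 and -2.22. NRF2 targets, which answer oxidative stress, were higher for 15 of 25 and lower for 9, Hmox1 and Srxn1 at 0.83 and 0.68 against Nqo1 and G6pdx at -0.64 and -0.72.

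Genes of protein folding and turnover were lower, apart from sensors of the endoplasmic reticulum. Of 19 tested heat shock chaperones 17 were lower and 1, Dnajb4, higher at 0.21 (median -0.87), a call lost without parental replicate 1. Hsph1 had 215 and 209.5 CPM in resistant libraries, against 747 and 744 CPM in parental ones (log2 fold change -1.81, SE 0.04, adjusted p = 4.29e-35). Of 18 chaperones and oxidoreductases of the endoplasmic reticulum 14 were lower and 2 higher, Calr, which encodes calreticulin, with 276 and 257 CPM in resistant libraries, against 1266 and 1300 CPM in parental ones. The oxidase gene Ero1l was one of those higher, with 368 and 344 CPM in resistant libraries, against 119 and 122 CPM in parental ones. Of 11 genes of its stress sensors and degradation 8 were higher and 1 lower, Ern1, which encodes the sensor IRE1-alpha, with 160.4 and 162 CPM in resistant libraries, against 48.04 and 56.6 CPM in parental ones (log2 fold change 1.62, SE 0.06, adjusted p = 1.16e-28). Proteasome genes were lower for 30 of 31 (median -0.80), Psmd13 at -1.57 and Psmd1 at -1.53.

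The parts of the ribosome moved in opposite directions. Cytosolic ribosomal protein genes were higher for 63 of 80 tested and lower for 5 (median 0.64), with Rps27 at 1.44, Rpl39 at 1.47 and Rps2 at -0.54. Genes that assemble ribosomes in the nucleolus were lower for 28 of 30 and higher for 1 (median -0.90), Nhp2, of the H/ACA particles, with 73.99 and 72.5 CPM in resistant libraries, against 264 and 261 CPM in parental ones (log2 fold change -1.84, SE 0.04, adjusted p = 5.21e-34). Mitochondrial ribosomal protein genes were lower for 62 of 77 and higher for 4 (median -0.58), with Mrps25 at -2.09. The transcripts that host small nucleolar RNAs, spliced RNAs that are known to decay when they are translated, were higher for 13 of 16 and lower for 2. Gas5 had 476 and 466 CPM in resistant libraries, against 142 and 139 CPM in parental ones (log2 fold change 1.75, SE 0.04, adjusted p = 3.15e-34), Zfas1 had 296 and 366 CPM in resistant libraries, against 70.3 and 63.97 CPM in parental ones, and Snhg12 rose by 2.71. The ribosomal protein share of reads was higher in both resistant libraries than in both parental ones, as given above. Its part in these counts was not tested. Reads from ribosomal protein genes may also be split with their many pseudogene copies.

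Energy metabolism was lower in most enzymes encoded in the nucleus. Glycolysis genes were lower for 14 of 23 and higher for 6, with Tpi1 and Ldha at -1.23 and -1.16, whereas Hk2, Eno2 and Aldoc, for the entry step and alternative isozymes, were higher (0.82, 1.58 and 2.64). Citric acid cycle genes were lower for 16 of 24 and higher for 4. Mdh2, malate dehydrogenase, had 259 and 245 CPM in resistant libraries, against 511 and 499 CPM in parental ones, and Pdk2, which shuts the entry of pyruvate, had 17.8 and 18.9 CPM in resistant libraries, against 3.09 and 1.85 CPM in parental ones (log2 fold change 2.92, SE 0.17, adjusted p = 1.41e-19). In the pentose phosphate pathway 3 of 7 were higher and 3 lower, and the sign of the median (-0.07) turned to 0.095 with upper-quartile scaling. Nuclear genes of complex I were lower for 16 of 24 and higher for 2, and those of complexes III to V lower for 20 of 24 and higher for 2. In complexes III to V 1 was called higher with DESeq2 or with no filter, and 4 were with upper-quartile scaling. Cycs, cytochrome c, had 93.98 and 95.9 CPM in resistant libraries, against 229.5 and 231 CPM in parental ones. The mitochondrially encoded genes were higher for 9 of 13 and lower for 3. None was called lower with DESeq2, with upper-quartile scaling or with a filter of at least 50 reads, and 1 was with the resistant and parental libraries alone. Among the higher ones, mt-Co1 had 12080 and 10720 CPM in resistant libraries, against 6656 and 7107 CPM in parental ones, and mt-Nd4 rose by 0.80. Among 18 hypoxia genes 9 were higher and 6 lower. Vegfa, the endothelial growth factor, had 777 and 768 CPM in resistant libraries, against 72.03 and 76.7 CPM in parental ones (log2 fold change 3.38, SE 0.05, adjusted p = 2.46e-43), Ndrg1 rose by 1.72, and the carbonic anhydrase gene Car12 changed by -1.21.

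Polyamine genes, which Odc1 leads, were lower for 9 of 14 and higher for 4, Srm, spermidine synthase, with 92.9 and 92.2 CPM in resistant libraries, against 246 and 219 CPM in parental ones, and Amd1, which supplies its aminopropyl groups, at -1.01. The oxidase gene Paox, which breaks polyamines down, and Azin2, an inhibitor of antizyme, rose by 1.43 and 2.21.

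**Figure D2:**
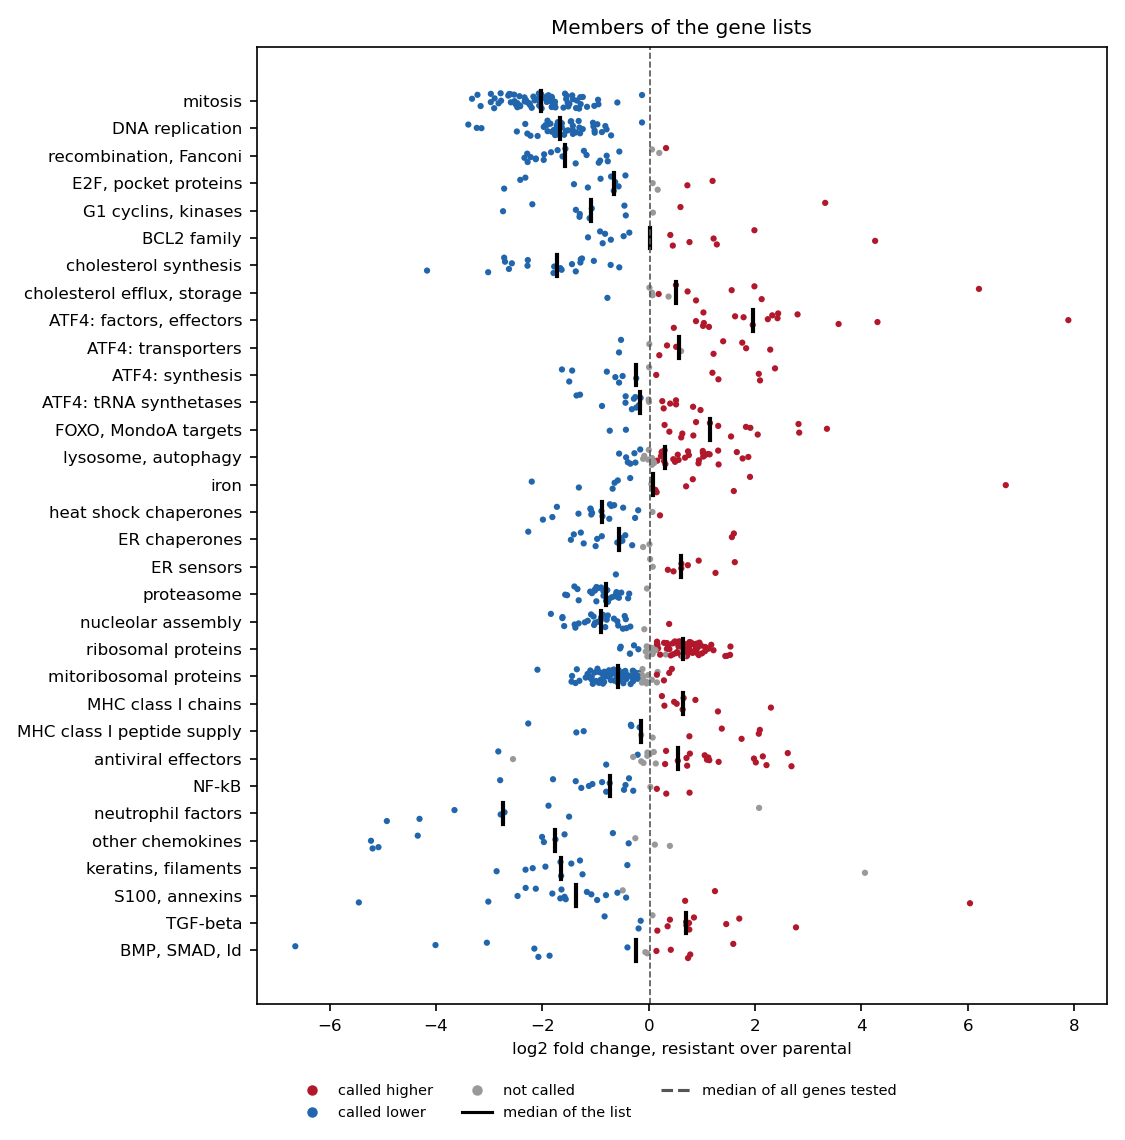
Log2 fold change (resistant over parental, from the fit) of each tested member of 32 gene lists, 1 point per gene, with called genes in red (higher) or blue (lower), genes not called in grey, and a black bar at the median of the list. All points of the mitosis and replication lists lie below 0, those of the ATF4 effectors above 0, and Fgf21, the point at 7.89, had no read in parental cells, so that its fitted value is no measured size.

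MHC class I chains were higher in the resistant cells, all 9 tested (median 0.64). The classical heavy chain gene H2-D1 had 564 and 517 CPM in resistant libraries, against 224 and 214 CPM in parental ones (log2 fold change 1.30, SE 0.04, adjusted p = 4.22e-29). H2-K1, the other classical chain counted here, had 20.9 and 20.2 CPM in resistant libraries, against 18.5 and 15.1 CPM in parental ones, a small change of 0.29 that was not called without parental replicate 2 or resistant replicate 1. B2m, the light chain, had 916 and 856 CPM in resistant libraries, against 592 and 639 CPM in parental ones. The non-classical chain H2-T23, the ligand of the receptor NKG2A, had 60.1 and 58.8 CPM in resistant libraries, against 11.8 and 12.4 CPM in parental ones, a 4.92-fold rise. H2-Q4, H2-Q6, H2-Q7, H2-T22 and H2-M3 rose by 0.66, 0.64, 0.48, 0.88 and 0.25, the last with an adjusted p of 0.0484 that missed the threshold whichever of the 8 libraries was left out. These chains are close paralogs, and how the authors' counting divided reads among them is not known. Of 13 genes that supply peptides 5 were higher and 6 lower, and their median of -0.14 turned to 0.020 with upper-quartile scaling and to 0.012 without resistant replicate 1. Tap1, a subunit of the peptide transporter, had 20.6 and 18.9 CPM in resistant libraries, against 4.93 and 4.52 CPM in parental ones, and its partner Tap2 had 30.9 and 30.4 CPM in resistant libraries, against 7.78 and 6.67 CPM in parental ones. Higher as well were the immunoproteasome genes Psmb8 and Psmb9 (1.37 and 1.75) and the transactivator Nlrc5 (0.77). Lower were the third immunoproteasome gene Psmb10 with 11.5 and 13.5 CPM in resistant libraries, against 31.6 and 32.6 CPM in parental ones, the peptide-loading chaperones Calr and Pdia3 (-1.22 for Pdia3), Erap1, Psme1 and Tapbp (-0.34, -0.33 and -0.17). With upper-quartile scaling Tapbp was not called (-0.010). Tapbpl and Psme2 were not called (-0.14 and 0.07), though Psme2 was called higher with upper-quartile scaling (0.237, adjusted p = 0.000492).

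Of the MHC class II list, Cd74 had 10.6 and 11.8 CPM in resistant libraries, against 0.119 and 0.0513 CPM in parental ones (log2 fold change 6.98, SE 0.38, adjusted p = 8.56e-21), and H2-DMa, which edits class II peptides, had 9.29 and 10.5 CPM in resistant libraries, against 2.49 and 2.41 CPM in parental ones. No read of the class II chains H2-Aa, H2-Ab1 and H2-Eb1 was counted in any of the 4 libraries. Ciita, their regulator, was too low to test.

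Ligands that inhibit or stimulate T cells and natural killer cells were mixed, with 4 of 14 tested inhibitory genes called higher and 7 lower and a median of -0.14 that turned to 0.025 with upper-quartile scaling and to 0.001 to 0.065 when some single libraries were left out. Cd274, which encodes PD-L1, had 3.05 and 2.21 CPM in resistant libraries, against 1.96 and 1.85 CPM in parental ones, and its change of 0.47 (SE 0.26, adjusted p = 0.101) was not called, though it was without resistant replicate 2 (0.68, adjusted p = 0.034) and with upper-quartile scaling (0.63, adjusted p = 0.027). Vsir, which encodes the checkpoint VISTA, had 15.4 and 15.2 CPM in resistant libraries, against 2.97 and 2.72 CPM in parental ones (log2 fold change 2.43, SE 0.16, adjusted p = 1.04e-17). Tnfrsf14, Cd47 and Nectin2 were higher (1.96, 0.40 and 0.22), the call of Nectin2 being lost without parental replicate 2 (0.119, adjusted p = 0.0797) and with no filter. Cd47 is the signal against phagocytosis, and it had 331 and 328 CPM in resistant libraries, against 247 and 254 CPM in parental ones. Lgals1 and Ptges, for galectin-1 and the last step to prostaglandin E2, were lower, Ptges with 76.4 and 76.8 CPM in resistant libraries, against 243 and 244 CPM in parental ones. Ptgs2, Lgals3, Lgals9, Pvr and Cd276 were lower by less (-0.51, -0.47, -0.35, -0.30 and -0.28), Cd276 not being called with upper-quartile scaling. Nectin3 and Nt5e were not called (0.15 and 0.01), but both were called higher with upper-quartile scaling, and Nectin3 also without resistant replicate 2. Of 6 tested stimulatory ligands 5 were lower and none higher, with 3 lower without resistant replicate 2 and 1 higher without parental replicate 2 or resistant replicate 1. Ulbp1, a ligand of the activating receptor NKG2D, had 44.3 and 41.9 CPM in resistant libraries, against 145 and 145 CPM in parental ones (log2 fold change -1.75, SE 0.05, adjusted p = 4.56e-31). Raet1d and Raet1e, other ligands of that receptor, and the costimulators Icosl and Tnfsf9 changed by -0.73, -0.71, -1.47 and -0.35, Tnfsf9 being lost in most other settings. H60b was not called (0.95).

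**Figure D3:**
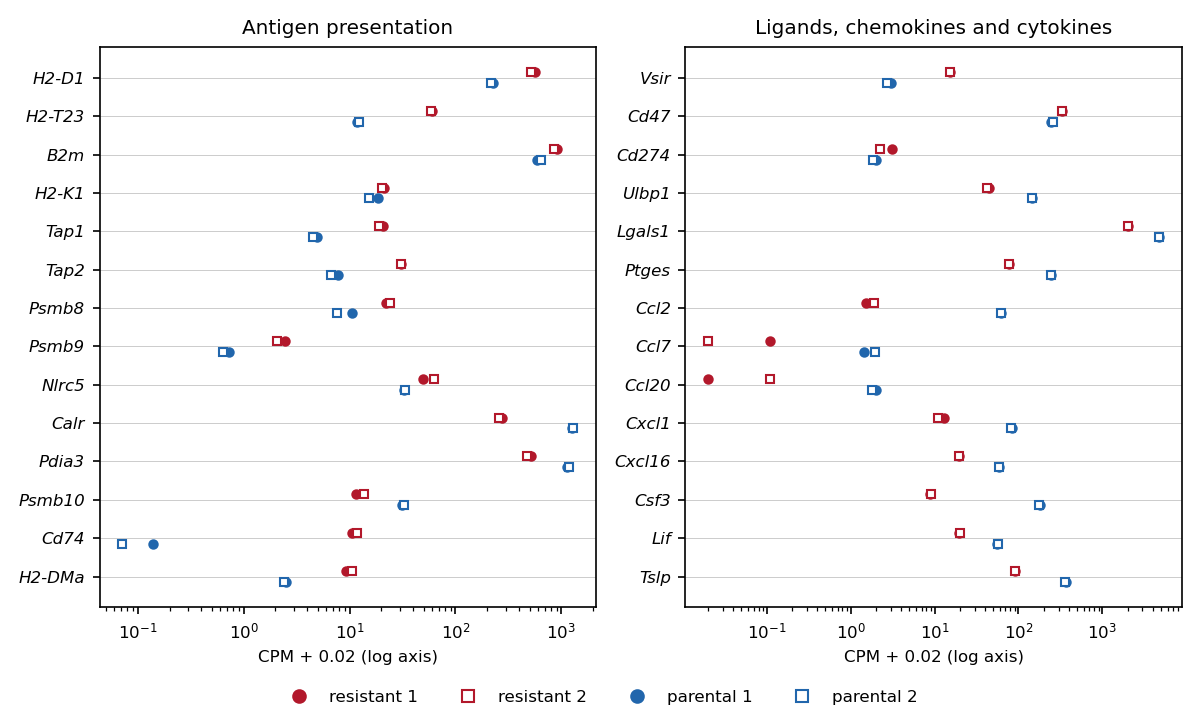
CPM plus 0.02 (log axis) in each library of genes of antigen presentation (left) and of ligands, chemokines and cytokines (right), with resistant libraries in red and parental libraries in blue. Tap1 and Tap2 lie higher in the resistant libraries and Calr and Psmb10 lower, and Csf3 lies at 8.76 and 9.15 CPM in resistant libraries against 181 and 175 CPM in parental ones.

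Interferon genes moved in both directions. Of 29 tested antiviral effectors 17 were higher and 3 lower, with a median of 0.55 that was 0.30 without resistant replicate 1 and 0.28 with no filter. One of the higher genes was Oasl2, with 13.7 and 15.1 CPM in resistant libraries, against 3.33 and 3.18 CPM in parental ones (log2 fold change 2.15, SE 0.14, adjusted p = 3.39e-18). Rsad2, which encodes viperin, had 6.28 and 5.28 CPM in resistant libraries, against 1.37 and 0.565 CPM in parental ones. Ifitm3, which blocks virus entry, was among the lower ones (-0.21), and with upper-quartile scaling it was not called and 1 lower gene was left. Of 15 sensors and adaptors 4 were higher and 8 lower, the RNA sensor genes Ifih1 and Dhx58 at 1.90 and 2.63, against Ddx58, which encodes RIG-I, at -0.61. Of 18 receptors, kinases and factors 10 were higher and 5 lower. Irf9, of the type I interferon complex, rose by 1.14. Socs1, the feedback inhibitor of JAK kinases, had 2.08 and 2.89 CPM in resistant libraries, against 9.09 and 8.57 CPM in parental ones (log2 fold change -1.83, SE 0.19, adjusted p = 1.14e-11), while Socs2 rose by 1.54. The receptor genes also parted, Ifngr2 of type II interferon at -0.60, against Ifnar2 of type I interferon, chosen after its values were seen, at 0.69. Of 13 inducible GTPases 6 were higher and 2, Gbp2 and Gbp3, lower (-2.13 and -1.64).

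Inflammatory output was lower. Of 17 tested NF-kB subunits and feedback genes 13 were lower and 3 higher (median -0.73), the feedback enzyme gene Tnfaip3 with 14.9 and 12.99 CPM in resistant libraries, against 91.2 and 102 CPM in parental ones (log2 fold change -2.79, SE 0.08, adjusted p = 5.88e-32), and Nfkbiz, a nuclear cofactor, higher at 0.77. Of 8 tested factors that raise or attract neutrophils 7 were lower and none higher (median -2.75). Csf3, the granulocyte colony-stimulating factor, had 8.76 and 9.15 CPM in resistant libraries, against 181 and 175 CPM in parental ones (log2 fold change -4.31, SE 0.06, adjusted p = 2.21e-42), Cxcl1, a neutrophil chemokine, averaged 11.96 CPM in resistant and 82.6 CPM in parental libraries, and Lif, of the interleukin 6 family, had 19.7 and 20.1 CPM in resistant libraries, against 55.3 and 57.04 CPM in parental ones. Of 13 factors for monocytes and lymphocytes 10 were lower and none higher (1 higher without parental replicate 2). Tslp, an epithelial alarmin, had 90.98 and 89.7 CPM in resistant libraries, against 365 and 361 CPM in parental ones, and Cxcl16 changed by -1.58. With a filter of at least 50 reads, 4 of the neutrophil factors were tested and called, all lower.

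Acute phase and complement genes were mixed, with medians of -0.26 and 0.81. Without parental replicate 1 these medians were 0.079 and 1.125, and without parental replicate 2 the complement median was 0.286. Lbp, which binds bacterial lipopolysaccharide, had 35.7 and 33.3 CPM in resistant libraries, against 1.25 and 0.719 CPM in parental ones (log2 fold change 5.15, SE 0.16, adjusted p = 8.95e-30), and C4b, a complement component, had 17.5 and 20.1 CPM in resistant libraries, against 0.356 and 0.565 CPM in parental ones (log2 fold change 5.31, SE 0.22, adjusted p = 5.75e-25). Lcn2, the siderophore-binding lipocalin, was lower, with 24.9 and 23.5 CPM in resistant libraries, against 59.98 and 60.4 CPM in parental ones. In all 2 of 12 acute phase genes were higher and 4 lower, and 5 of 10 complement genes were higher and 2 lower (1 without parental replicate 1), with C1ra at 1.59 and C3 at -0.86. Of 21 secreted angiogenic factors 9 were higher and 7 lower. Vegfa was the one with the smallest adjusted p among those higher. Sema3c, a semaphorin, had 2.03 and 1.35 CPM in resistant libraries, against 19.8 and 20.3 CPM in parental ones, and Apln, the peptide apelin, had 13.1 and 13.8 CPM in resistant libraries, against 37.5 and 40.8 CPM in parental ones.

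Fibronectin was higher and several secreted proteases lower. Fn1 led 8 of 20 tested laminin and glycoprotein genes that were higher, with Lama5 and Agrn at 0.98 and 0.70, and 6 were lower, with Sparc and Tnc at -0.62 and -2.14. Collagens were higher for 8 of 14 and lower for 4, Col5a1 with 202 and 209 CPM in resistant libraries, against 112 and 106 CPM in parental ones. Col8a1 was lower, with 70.01 and 65.6 CPM in resistant libraries, against 173 and 182 CPM in parental ones. Metalloproteinases and inhibitors were higher for 6 of 18 and lower for 8. Mmp3, a secreted stromelysin, had 134 and 126 CPM in resistant libraries, against 649.7 and 675 CPM in parental ones (log2 fold change -2.35, SE 0.04, adjusted p = 1.72e-38), and Mmp9, a secreted gelatinase, had 23.4 and 22.7 CPM in resistant libraries, against 98.7 and 94.3 CPM in parental ones. Mmp14, anchored in the membrane, and Mmp11 rose by 0.65 and 1.70. In the plasminogen system, which activates proteases at the cell surface, 6 of 8 were lower and 1 higher. Plau, urokinase, had 59.3 and 62.8 CPM in resistant libraries, against 227 and 217 CPM in parental ones, and its receptor Plaur had 50.8 and 55.1 CPM in resistant libraries, against 242 and 241 CPM in parental ones.

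Filament genes were mostly lower, and attachment genes were mixed. Of 11 tested keratin, filament and lamin genes 10 were lower and none higher (median -1.65). Vim, vimentin, had 603 and 563 CPM in resistant libraries, against 2610 and 2680 CPM in parental ones (log2 fold change -2.18, SE 0.04, adjusted p = 3.56e-37), and Lmna, which encodes lamins A and C, had 290.4 and 281 CPM in resistant libraries, against 1411 and 1439 CPM in parental ones. Both the mesenchymal filament Vim and the epithelial keratin Krt8 (-1.25) were lower. Of 7 desmosome genes 4 were lower and 2 higher, Dsp, desmoplakin, with 2.48 and 3.07 CPM in resistant libraries, against 38.5 and 41.9 CPM in parental ones (log2 fold change -3.86, SE 0.12, adjusted p = 2.74e-30). Jup, plakoglobin, was higher, with 114 and 109.9 CPM in resistant libraries, against 41.1 and 39.1 CPM in parental ones. Of 12 integrins 7 were lower and 3 higher. Itga2, a collagen receptor, had 10.1 and 8.57 CPM in resistant libraries, against 86.4 and 91.8 CPM in parental ones (log2 fold change -3.26, SE 0.08, adjusted p = 8.76e-34), and Itgb4, of hemidesmosomes, had 21.2 and 22.1 CPM in resistant libraries, against 5.05 and 4.26 CPM in parental ones. Of 9 tight junction genes 4 were higher (2 without parental replicate 1) and 3 lower, Tjp1 at 0.75 and Ocln at -2.77. Of 7 cadherin and catenin genes 2 were higher (1 without parental replicate 2) and 3 lower. Factors of epithelial and mesenchymal state were higher for 6 of 15 and lower for 3, Zeb2 and Sox4 at 0.94 and 1.15, against Twist1 and Snai1 at -0.39 and -0.36.

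S100 calcium-binding genes were lower for 8 of 10 tested and annexins for 8 of 10. S100a6 had 489 and 526 CPM in resistant libraries, against 1580 and 1584 CPM in parental ones (log2 fold change -1.64, SE 0.04, adjusted p = 4.79e-33), S100a11 had 79.7 and 78.2 CPM in resistant libraries, against 429 and 444 CPM in parental ones, and their partner Anxa2 had 385 and 370.1 CPM in resistant libraries, against 1196 and 1195 CPM in parental ones. The exceptions were S100a16, S100a1 and Anxa6 (0.69 for S100a1 and 1.25 for Anxa6).

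Growth factor genes were mixed. EGF ligands and receptors were lower for 6 of 11 and higher for 2. None was called higher with DESeq2 or with a filter of at least 50 reads, and 4 were with upper-quartile scaling. The ligand gene Areg had 4.6 and 4.01 CPM in resistant libraries, against 22.3 and 23.1 CPM in parental ones, and Hbegf changed by -1.75. ERK feedback genes were lower for 8 of 16 and higher for 6, Etv4 at -1.45 and Spry1, with 34.4 and 31.02 CPM in resistant libraries, against 6.18 and 7.03 CPM in parental ones, at 2.30. Of the AP-1 and immediate early genes 8 of 15 were higher and 7 lower. The Jun and Fos families parted within themselves, Jund and Fosb at 1.65 and 0.97, against Jun and Fosl1 at -0.64 and -2.02. Fosl1 had 77.2 and 72.1 CPM in resistant libraries, against 293 and 312 CPM in parental ones (log2 fold change -2.02, SE 0.05, adjusted p = 4.20e-34). YAP and TEAD genes were higher for 7 of 18, factors such as Tead3 and Tead2 (1.43 and 0.66), and lower for 9, among them the targets Ankrd1 and Cyr61 (-1.64 and -1.50).

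Developmental pathways were mixed, apart from the Id genes. All 4 of these, inhibitors of basic helix-loop-helix factors that BMP signals induce, were lower. Id1 had 55.6 and 56.05 CPM in resistant libraries, against 208 and 199 CPM in parental ones, Id3 had 9.33 and 9.83 CPM in resistant libraries, against 79.2 and 78.8 CPM in parental ones (log2 fold change -3.04, SE 0.08, adjusted p = 2.06e-32), and Id2 and Id4 changed by -4.01 and -6.65. In the BMP list as a whole 7 of 14 were lower and 5 higher, the receptor gene Bmpr2 at 0.74. TGF-beta genes were higher for 11 of 15 and lower for 3 (median 0.70), with 1 lower with DESeq2, upper-quartile scaling or the resistant and parental libraries alone. The coreceptor gene Tgfbr3 had 164 and 154 CPM in resistant libraries, against 56.2 and 59.7 CPM in parental ones (log2 fold change 1.46, SE 0.05, adjusted p = 3.97e-28). The ligands parted, Tgfb3 at 1.70 and Tgfb1 at -0.83. Wnt genes were higher for 7 of 17 and lower for 4, Wnt9a at 2.69 and Wnt7a lowest. Notch genes were higher for 6 of 14 and lower for 8. The receptor Notch1 had 46.97 and 44.9 CPM in resistant libraries, against 18.2 and 17.3 CPM in parental ones, and the ligand Dll4 had 5.35 and 6.63 CPM in resistant libraries, against 50.1 and 50.2 CPM in parental ones (log2 fold change -3.07, SE 0.11, adjusted p = 3.78e-28). Purinergic genes were called for 3 of 8 tested (1 more higher without parental replicate 1), P2rx3 higher and P2ry2 and P2ry6 lower (-2.26 and -2.16).

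Chromatin genes were mixed. Uhrf1, which brings the maintenance methyltransferase to new DNA, had 42.7 and 46.6 CPM in resistant libraries, against 336 and 334 CPM in parental ones (log2 fold change -2.91, SE 0.05, adjusted p = 2.70e-40), and Dnmt1, that enzyme, had 202 and 192 CPM in resistant libraries, against 593 and 604 CPM in parental ones. Uhrf2 and Tet2 were higher (1.18 and 0.85), and in all 6 of 15 DNA methylation genes were higher and 3 lower. Of 18 Polycomb and histone methylation genes 7 were higher and 10 lower. Ezh2, the methyltransferase of histone H3 lysine 27, changed by -1.17, and Kdm6b, a demethylase of that mark, had 141 and 141 CPM in resistant libraries, against 28.3 and 33.7 CPM in parental ones (log2 fold change 2.18, SE 0.06, adjusted p = 7.57e-31). Clustered histone genes were tested for 17 of 54 only, with 1 higher, Hist1h1c at 0.61, and 3 lower (1 without resistant replicate 1 and 5 without either knockout library). Long noncoding RNAs of the list were higher for 8 of 10 and lower for none, Pvt1 with 60.1 and 58.8 CPM in resistant libraries, against 17.9 and 21.4 CPM in parental ones. Malat1 rose by 0.65.

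Classes of genes also differed in their share of calls. The E2F, bZIP and Rel homology classes share members with the lists above, so their counts are not separate from those. Genes the deposited annotation puts in a transcription factor family were called higher for 451 of 893 (50.5%) and lower for 201 (22.5%), with a median of 0.31. Zinc finger genes of the C2H2 class had 212 higher and 68 lower of 416, and bZIP genes, the class of ATF4 and AP-1, 28 higher and 8 lower of 41. Of the 10 E2F family genes 7 were lower and 1 higher, and of the 10 Rel homology genes, the class of NF-kB, 8 were lower and 2 higher. Protein-coding genes had a median of -0.03 over 12025, antisense RNAs 0.76 over 464 with 174 higher and 40 lower, and long intergenic RNAs 0.56 over 438 with 154 higher and 54 lower. By level, the decile of genes with the highest mean CPM over both groups had a median of -0.25, and the 3 lowest deciles medians of 0.42, 0.55 and 0.44. The part of level in the class medians was not tested. Whether the counts used strand is not stated, so reads of an antisense RNA and of its partner cannot be told apart.

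By position, protein-coding genes of chromosomes 13 and 5 were lower as a whole. On chromosome 13 the median was -0.44, with 84 of 443 called higher and 257 lower (58.0%), and on chromosome 5 it was -0.34, with 187 of 765 higher and 434 lower (56.7%). Over all protein-coding genes 35.8% were higher and 41.0% lower, and the medians of the other autosomes and X lay between -0.16 and 0.15. In ratios of mean CPM with 0.5 added, chromosome 13 had -0.40 in resistant cells over parental cells, -0.29 in knockout cells and -0.07 in overexpressing cells over the same parental cells, and chromosome 5 had -0.33, -0.13 and -0.18. Within 20 Mb windows the lowest medians were on chromosome 5 from 40 to 60 Mb (-0.54, with 24 of 41 tested genes lower and 6 higher) and from 20 to 40 Mb (-0.52, 104 of 179 lower and 30 higher), and on chromosome 13 from 100 to 120 Mb (-0.46, 44 of 74 lower and 10 higher). These windows held Ncapg, Tyms and Ccnb1, of the mitosis and replication lists, as well as Lap3, Wdr1 and Itga2, which are in neither (-2.53, -3.15, -3.16, -1.58, -2.03 and -3.26). No copy number was measured, and the part of DNA dosage was not tested.

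**Figure D4:**
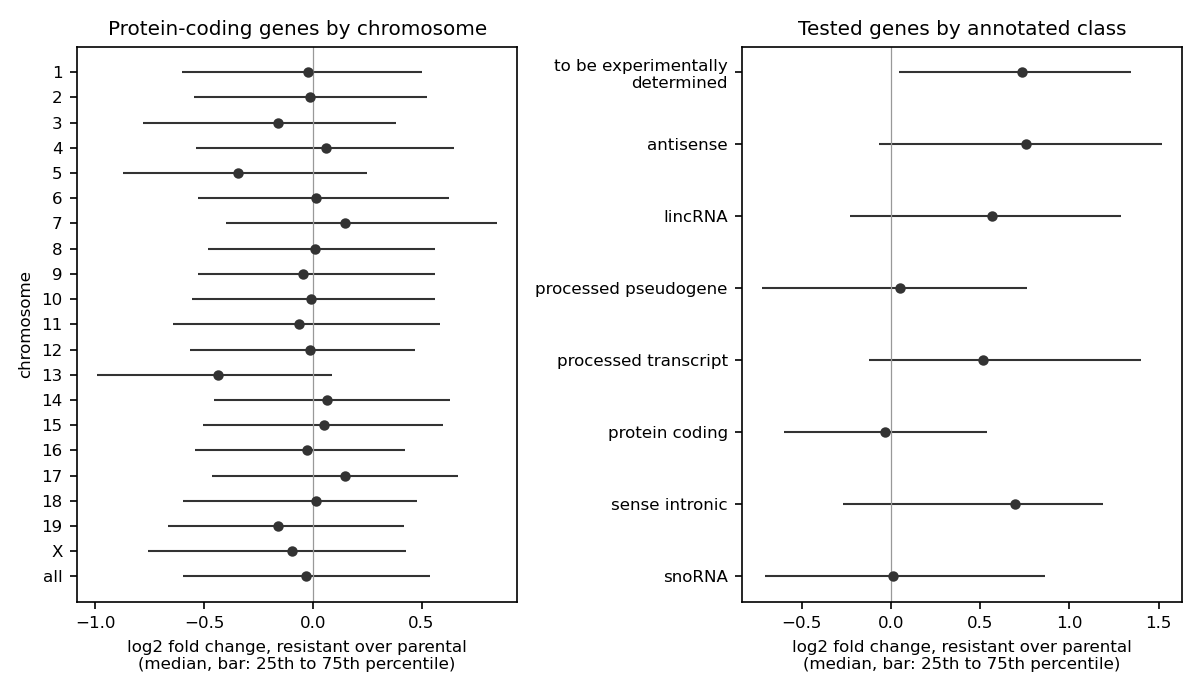
Median log2 fold change (resistant over parental, points) and 25th to 75th percentile (bars) of protein-coding genes by chromosome (left) and of tested genes by annotated class (right). Chromosomes 13 and 5 have the lowest medians, at -0.44 and -0.34, and antisense RNAs the highest among the classes, at 0.76.

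In the libraries labelled Tyro3 knockout in resistant cells, several of the genes that changed most had levels near the parental ones. Odc1 had 2309 CPM on average in knockout cells, 341 in resistant cells and 3668 in parental cells. Ccnb1 averaged 248 CPM in knockout cells, 35.0 in resistant cells and 313 in parental cells, and Trib3 27.96, 544 and 27.6 CPM in the same order. P2rx3 had 0.0505, 19.6 and 0.0257 CPM. Not all genes did so. Hs3st1 averaged 4.31 CPM in knockout cells, 0.849 in resistant cells and 30.4 in parental cells, and Foxf2 had no read in knockout or resistant cells against 3.89 CPM in parental cells. Fn1 averaged 1420 CPM in knockout cells, 3464 in resistant cells and 874 in parental cells, and Tap1 6.47, 19.8 and 4.72 CPM. Csf3 averaged 643 CPM in knockout cells, 8.96 in resistant cells and 178 in parental cells. These levels share the parental and resistant libraries with the comparison above and are given as values only.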

How the data were processed

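Whole-number read counts per gene were deposited by the authors, with FPKM values that the authors computed beside them in the same tables, and CPM was computed here from the counts. Per the submitters' processing notes, CASAVA, STAR and DESeq2 were used with GRCm38 and mm10. The sources used here do not name the counting program, its strand setting or any version. The authors' own fold changes and p-values were not used.

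Counts of the 8 libraries were joined on gene identifier and fitted together with edgeR 4.0.16 (R 4.3.3, limma 3.58.1), with filtering by expression, TMM scaling and the quasi-likelihood test of resistant minus parental. P-values were adjusted by Benjamini-Hochberg over all 14513 genes tested, and the standard error is the absolute log2 fold change divided by the square root of F. FPKM values were used in no test or fold change. Totals of 18001482 to 22003608 reads lay behind the 4 libraries compared. The procedure was tested on simulated data in which only a small share of genes changed, in both directions. That test cannot show how the scaling behaves when most genes differ.

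Members of 55 gene lists in 99 roles, markers included, were matched by symbol or synonym (1634 of 1737 memberships found). The members and lists were chosen with earlier results of these data known. Genes named are the 12 largest rises and falls at 5 CPM or more without overlap, the 10 largest gains and losses of CPM, 5 per direction with no read in 1 group, up to 3 called members per role and direction by smallest adjusted p, every member of the TAM, MHC class I, ligand, ferroptosis and CDK inhibitor roles, and up to 5 genes of a chromosome window. Some genes that this rule names are not reported here. Exceptions are stated. Alternatives were other scalings, DESeq2 1.42.0, other filters, the resistant and parental libraries alone, a replicate block and leaving out each library. Replicate numbers do not pair the samples: deviations of same-numbered libraries correlated at -0.001 to 0.034.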

Additional observations from a re-analysis of the deposited data

How the results depend on the processing

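The number of genes called, 10333, lay between 9319 and 10628 over the alternatives, with 4447 to 6264 higher and 4364 to 5380 lower, and no gene called in the fit used here was called in the opposite direction. Upper-quartile scaling raised the share of higher calls to 58.9%, against 49.3%, and the median of all genes to 0.19, against 0.03. Tyro3 was then no longer called (-0.093, adjusted p = 0.301). The replicate block gave 10274 calls, and the same block with the resistant and parental libraries alone, chosen after seeing the data, gave 9952. Medians of some lists changed sign with upper-quartile scaling, to 0.033 for BCL2 survival members (-0.13 before), 0.095 for the pentose phosphate pathway and 0.015 for ferroptosis genes of both roles (-0.15 before). Values of some named genes that were not called also changed sign. With upper-quartile scaling these were Cdkn1a (0.048), Erbb2 (0.080) and Tapbpl (0.020), and with no filter Nt5e (-0.035). Without 1 library the value lay between -0.31 and 0.114 for Cdkn1a, -0.058 and 0.065 for Nt5e, -0.321 and 0.012 for Tapbpl, -0.006 and 0.23 for Cd68 and -1.11 and 0.34 for Cdh1. The causes were not tested. With 2 libraries per group and depths of 18001482 to 22003608 reads, genes under about 1 CPM rest on few reads, and the calls cannot tell differences between cell populations from differences between these cultures.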
